A study of Homo sapiens with 54 samples.

Results

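OCI-Ly1 cells carrying a mutant STAT6 were compared with cells carrying wild-type STAT6 at 8 h after a short pulse of interleukin-4 (IL-4), to describe which genes and functions still differed at that time. The libraries were chosen by their titles: 18 of the 54 libraries of the series were labelled with an 8 h wait, 9 of them with wild-type STAT6 (STAT6 WT) and 9 with a mutant (STAT6 MUT). The mutant libraries came from 3 lines, STAT6 D419G, STAT6 D419N and STAT6 N421K, with 3 libraries each. OCI-Ly1 is a human B cell lymphoma line with the BCL2 translocation of follicular lymphoma, and the 3 changes lie in the DNA-binding domain of STAT6. All 18 cultures had received 10 ng/ml IL-4 for 20 min, were washed and then stood without IL-4 for 8 h, so no library shows cells that never saw IL-4. The other 36 libraries were treated alike and collected at 2 h or 4 h. STAT6 was expressed stably from a construct under a viral promoter with a Flag tag in cells that keep their own STAT6, whose DNA-binding domain is itself altered in this line, and the number of independent transductions per line is not given in the sources used here. The labels call the libraries biological replicates. RNA was read at 3' ends by prime-seq, a bulk method in which each molecule carries a unique molecular identifier (UMI), and the values are UMI counts per gene.

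STAT6 is the transcription factor of the IL-4 and IL-13 receptors: the receptor-bound Janus kinases phosphorylate it, it pairs with a second copy, enters the nucleus and binds DNA, and in B cells it is known for switching on the low-affinity IgE receptor CD23 (FCER2), the IL-4 receptor itself and the feedback inhibitor SOCS1. Mutations of its DNA-binding domain recur in follicular lymphoma. Interferons signal through other members of the STAT family, which with IRF9 bind an element built from GAAA repeats and switch on antiviral genes such as MX1, the OAS family and ISG15.

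The libraries held 161518 to 2685091 UMIs, with a median of 1118772 in STAT6 WT and 743121 in STAT6 MUT (exact permutation test, two-sided, p = 0.209, n = 9 and 9). Mitochondrial transcripts took 4.80% to 6.18% of UMIs. There were 3 shallow libraries, at less than 0.5 of the median total of the series (WT replicate 2, D419N replicate 3 and N421K replicate 2). One library stood apart from its line. Over 19 genes that were lower in N421K than in STAT6 WT at both 2 h and 4 h, the median log2 level at 8 h lay 1.68 and 1.12 below the STAT6 WT mean in N421K replicates 1 and 3 (values -1.68 and -1.12), but at -0.355 in N421K replicate 2, within the range of the D419G libraries (-0.557 to -0.182). What sets this library apart was not tested, and counts of calls and the changes of N421K are also given without it where they moved most. The 19 genes include EPCAM, PAG1, CD48, BCL11A, FARP2, ADGRE5, SCRN1 and CAMK4. For these genes, larger changes without this library follow from how it was singled out and are no support. B cell identity markers (MS4A1, CD79A and others, 8 of 8 tested) summed to 4215 to 4629 CPM (UMI counts scaled to a library of 1000000 UMIs) in STAT6 WT and 3987 to 4620 CPM in STAT6 MUT. Myeloid markers were near 0, with a sum of at most 2.67 CPM over 6 genes in any library. Of 7 T cell markers in the table, LCK and TRAC were expressed, CD4 and CD3G were at 0 in all 18 libraries, and their sum was 121 to 169 CPM in STAT6 WT and 132 to 219 CPM in STAT6 MUT. STAT6 itself, read from the endogenous gene and from whatever part of the construct the 3' reads reach, was at 169, 180 and 228 CPM (lowest, median and highest library) in STAT6 WT and at 146, 181 and 214 CPM in STAT6 MUT. The groups overlapped, and the log2 fold change was -0.07 ± 0.08 (SE, adjusted p = 0.762, edgeR's quasi-likelihood test). In bulk libraries, a change in the number of cells that express a gene and a change in RNA per cell cannot be told apart.

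At 8 h the antiviral genes that interferons induce were the largest rises in STAT6 MUT cells, 6 of 22 tested IL-4 target genes were higher by smaller amounts, and EPCAM, PITPNC1, CD48 and TERT were the largest falls. Of 8801 genes tested, 127 (1.44%) passed an adjusted p of 0.05, 75 of them higher in STAT6 MUT (0.852%) and 52 lower (0.591%), and 1205 had an unadjusted p under 0.05. The rises were larger than the falls. Their median log2 fold change was 0.58 against -0.36, and 14 genes rose and 4 fell by at least 1 on the log2 scale. The fitted change had the same sign in all 3 lines for 126 of the 127 genes. The genes were chosen by the pooled change over these same libraries, and the lines share the STAT6 WT libraries. Agreement in sign therefore follows in large part from that choice and is no support. In 6 of the genes called higher (0.0682% of those tested), every STAT6 MUT library lay above every STAT6 WT library: MX1, IFI44, IRF7, IL21R, MOB3C and LGALS9. In 5 of the genes called lower (0.0568%) every one lay below: POLR2J, PMVK, NCF1C, ARPC1B and PLEKHO1. The number called depended on single libraries. It was 76 without N421K replicate 3, 79 without WT replicate 8, 82 without WT replicate 3, 84 without WT replicate 6, 206 without D419G replicate 1 and 135 without N421K replicate 2. A set of 15 genes was called under each of 36 alternative settings, 14 of them higher (among them MX1, EPSTI1, IRF7, IL21R, IFI35, SAMD9, OAS2, MOB3C, ISG15, QSOX1, RNF213, LGALS9 and SAT1) and EPCAM lower.

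Of the interferon-induced genes that carry out the antiviral response, modify proteins with ISG15 or sense foreign nucleic acid, 99 were in the table, 48 passed the filter on low counts, and 18 of these 48 were called higher (37.5%, against 0.852% of all genes tested) and none lower. Of the 48, 42 had a positive fold change, and their median log2 fold change was 0.31 against 0.00 over all genes tested. Leaving out any 1 library or replicate number gave 16 to 21 called. The members of this list and of those below were chosen with earlier results of these data known. The shares called are therefore descriptions and no test of a list. The 80 effector genes alone summed to 2358 to 2528 CPM in STAT6 WT and 2545 to 4175 CPM in STAT6 MUT.

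The promoters of several of these genes hold the GAAA repeat, a feature that the choice of genes did not use. A few are shown to let it be read in place. PARP14 and CYBB, also shown, were called higher but belong to other lists. Stretches of promoter are printed 5' to 3' on the gene's strand, from the RefSeq promoter windows (build GRCh38.p14, 250 bases before to 50 bases after the annotated start), with the motif (GAAA, any 2 bases, GAAA) or its reverse complement in capitals. Overlapping copies make 1 longer run of capitals. They lie at chr1:78649746-78649788 (plus strand) for IFI44, chr13:42992257-42992316 (minus strand) for EPSTI1, chr1:1013365-1013424 (plus) for ISG15, chr3:122680785-122680838 (plus) for PARP14, chr7:93118081-93118140 (minus) for SAMD9, chr19:17405720-17405779 (minus) for BST2 and chrX:37779948-37780007 (plus) for CYBB.
IFI44: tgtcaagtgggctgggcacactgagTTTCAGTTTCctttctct
EPSTI1: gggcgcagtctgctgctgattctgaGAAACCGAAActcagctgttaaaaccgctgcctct
ISG15: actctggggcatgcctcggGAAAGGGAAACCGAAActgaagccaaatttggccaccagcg
PARP14: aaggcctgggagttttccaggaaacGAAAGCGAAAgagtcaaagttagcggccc
SAMD9: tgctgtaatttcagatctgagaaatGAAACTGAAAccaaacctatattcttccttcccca
BST2: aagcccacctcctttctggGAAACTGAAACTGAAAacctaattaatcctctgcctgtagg
CYBB: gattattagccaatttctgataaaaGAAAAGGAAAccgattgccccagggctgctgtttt
The motif began 18 bases before the start of IFI44, 50 before EPSTI1, 29 before PARP14, 136 before SAMD9 and 86 before CYBB. The overlapping copies began 113 and 107 bases before ISG15 and 130 and 124 before BST2, and CYBB held a further copy, not printed, 225 bases before its start. Of the 75 genes called higher, 62 had a promoter in the table, and 12 of these (19.4%, 95% Wilson interval 11.4% to 30.9%) held the motif on either strand. The share was 2.70% of 6627 promoters of tested genes (179), 3.65% of all 27305 promoters (996), and 1 of 37 promoters of genes called lower (2.70%). Within the genes called higher, 9 of 16 promoters of interferon-list genes (56.2%) and 3 of 46 others (6.52%) held it. The spacing that STAT6 is known to prefer, TTC and GAA with NNNN between them (its own reverse complement), was in 4 of the 62 promoters (6.45%), CD83, FCER2, OAS1 and RIGI, against 4.68% of promoters of tested genes and 6.37% of all promoters, and in 0 of 37 of the genes called lower. The spacing of other STATs, TTC and GAA with NNN between them, was in 8 of 62 (12.9%), 2 of 37 (5.41%), 6.26% of promoters of tested genes and 7.88% of all promoters. PARP14 and BCL6 were among the 8. These matches describe the letters in a window and are not evidence of binding.

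MX1, a dynamin-like GTPase that blocks influenza and other viruses (chromosome 21, 41420020 to 41470071 in GRCh38, overlapping TMPRSS2 on the other strand), had the smallest p of all genes. It was at 26.8, 41.8 and 53.7 CPM (lowest, median and highest) in STAT6 WT and at 113, 178 and 379 CPM in STAT6 MUT. All 9 STAT6 MUT libraries lay above all 9 STAT6 WT libraries, with a log2 fold change of 2.64 ± 0.16 (SE, adjusted p = 1.18e-15, edgeR). An exact permutation test of 9 against 9 libraries, two-sided, gave p = 4.11e-05, the smallest this design allows.

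IFI44, a microtubule-associated interferon-induced protein (chromosome 1, 78649796 to 78664078), had the largest rise. STAT6 WT libraries held 0.701, 1.97 and 6.43 CPM, a median of 1 UMI, and STAT6 MUT libraries 11.9, 28.5 and 53.4 CPM. The groups did not overlap, and the log2 fold change was 4.27 ± 0.30 (SE, adjusted p = 5.94e-14, edgeR). The gene did not pass the filter on low counts in the separate fits of 2 h and 4 h. In a model of all 54 libraries it was higher at both times, by 1.79 and 2.99 on the log2 scale (adjusted p = 0.00314 and 1.16e-09, edgeR).

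EPSTI1, induced by interferon in epithelial and immune cells, was at 4.21, 8.53 and 16.9 CPM in STAT6 WT and 15.2, 35.6 and 84.2 CPM in STAT6 MUT. All but 1 of the 9 STAT6 MUT libraries lay above all STAT6 WT libraries, with a log2 fold change of 2.60 ± 0.24 (SE, adjusted p = 1.54e-10). ISG15, a ubiquitin-like protein that is coupled to newly made proteins, was the most abundant member that rose, at 123, 144 and 160 CPM against 154, 276 and 379 CPM. One STAT6 MUT library reached into the STAT6 WT range, and the log2 fold change was 1.00 ± 0.10 (SE, adjusted p = 1.18e-09). UBE2L6, the conjugating enzyme for ISG15, rose by 0.60 ± 0.09 (log2, SE), from a mean of 63.0 ± 10.5 CPM (SD, n = 9) to 93.1 ± 10.5 CPM (SD, n = 9).

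IFI35, an interferon-induced leucine zipper protein, was at 9.94, 16.1 and 19.7 CPM in STAT6 WT and 11.9, 42.1 and 56.8 CPM in STAT6 MUT. Of the STAT6 MUT libraries, 8 were above all STAT6 WT libraries and the shallow D419N replicate 3 was within them, with a log2 fold change of 1.44. OAS2, which makes the 2',5'-oligoadenylates that switch on RNase L, was at 22.7, 25.8 and 30.9 CPM and at 29.7, 52.5 and 79.5 CPM, a log2 fold change of 1.15, and OAS1 rose by 0.65. SAMD9, a restriction factor for poxviruses, was at 10.1, 17.9 and 26.0 CPM and at 17.8, 40.2 and 69.9 CPM, a log2 fold change of 1.35. For both OAS2 and SAMD9, 8 of 9 STAT6 MUT libraries lay above all STAT6 WT libraries. IFITM2, a membrane protein that blocks virus entry, rose by 1.06, with the caveat that its reads may be shared with its close paralogs. The other effectors called higher were RNF213 (log2 fold change 0.96), LGALS9 (0.93), EIF2AK2, the RNA-activated kinase PKR (0.89), MOV10 (0.69), SHFL (0.63), BST2 or tetherin (0.55) and TRIM25 (0.46). Of 6 tested RNA and DNA sensors, RIGI, the sensor of viral RNA ends, was called higher (16.7%, against 0.852% of all genes). It was at 6.43, 11.9 and 15.1 CPM in STAT6 WT and 12.3, 19.9 and 27.9 CPM in STAT6 MUT. Its log2 fold change was 0.87 ± 0.18 (SE, adjusted p = 0.00248), with 8 of 9 STAT6 MUT libraries above all STAT6 WT libraries.

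**Figure D1:**
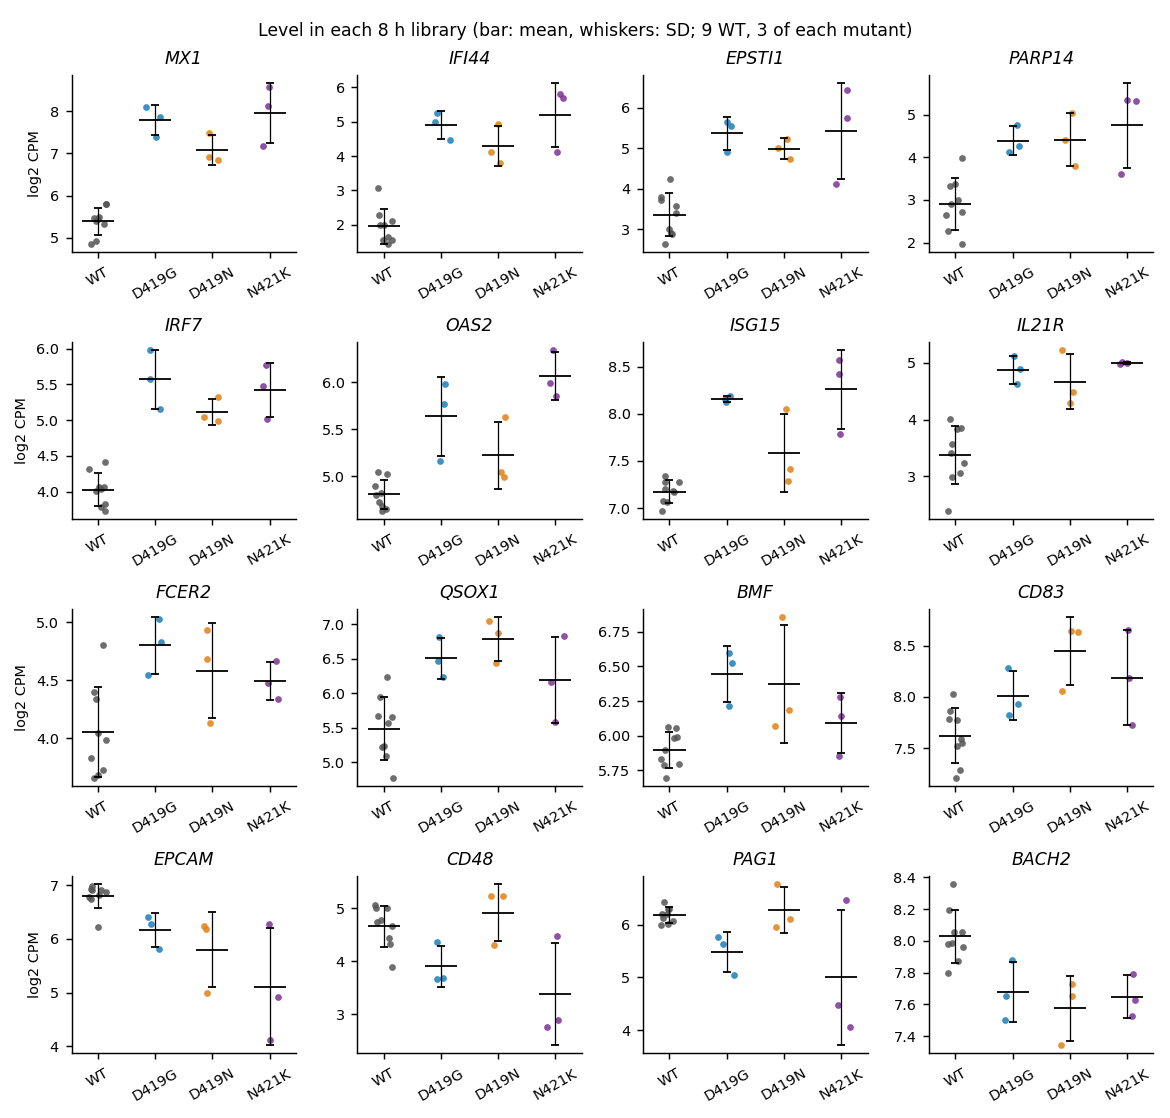
Level of 16 genes in each of the 18 libraries at 8 h, in log2 CPM on axes of their own, with 9 STAT6 WT libraries and 3 libraries of each mutant line as points, the group mean as a bar and the SD as whiskers. MX1, IFI44, IRF7 and IL21R separate STAT6 WT from all mutant libraries, and 1 N421K library stands apart for EPCAM (6.29), PAG1 (6.46) and CD48 (4.48).

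The signalling parts of the interferon pathway are its ligands, its receptors with their kinases and the factors that carry the signal to the nucleus. Of 4 interferon ligand genes in the table, IFNA5 and IFNB1 had no UMI in any of the 18 libraries, and none of the 4 had a UMI in the 9 STAT6 MUT libraries, which over their 7245580 UMIs allows up to 0.414 CPM (3 counts; counting error only). In STAT6 WT the 4 summed to at most 0.920 CPM in a library. None of 8 tested receptor chains and kinases of the interferon receptors was called in edgeR's test. Their median log2 fold change was 0.11, all 8 were positive, 1 had an unadjusted p under 0.05, and DESeq2 and limma-voom called 0. Of 12 tested STATs and interferon regulatory factors, 2 were called higher (16.7%, against 0.852% of all genes), IRF7 among them. IRF7, the factor that amplifies type I interferon output, was at 11.2, 14.4 and 19.3 CPM in STAT6 WT and 29.7, 38.0 and 61.4 CPM in STAT6 MUT. No library overlapped, and the log2 fold change was 1.62 ± 0.15 (SE, adjusted p = 1.62e-10). IRF4 was at 0, 2.76 and 8.43 CPM in STAT6 WT and 0, 9.02 and 25.4 CPM in STAT6 MUT. It was below the filter of the 8 h comparison and was not tested there. The model of all 54 libraries did test it, and it was higher in STAT6 MUT at 8 h. Its log2 fold change there was 1.20 ± 0.32 (SE, adjusted p = 0.0218, edgeR). In that model it was also higher at 2 h and 4 h (adjusted p = 0.0286 and 1.87e-04, edgeR). The gene had few counts, at most 17 UMIs in any 8 h library.

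The PARP family attaches ADP-ribose to proteins, and its member PARP14 is known as a co-activator of STAT6. Of 13 tested members (the list also holds their partner DTX3L), PARP14, PARP9 and PARP12 were called higher (23.1%, against 0.852% of all genes) and none lower, and the median log2 fold change was 0.10. The count was 1 without any 1 of WT replicates 3 and 9 and N421K replicates 1 and 3, and 0 of 10 tested with DESeq2. DESeq2 gave PARP14 and PARP9 no adjusted p, so its count does not speak of them. Among the alternative settings that gave a value, PARP14 kept its call in all 35 and PARP9 in 22 of 23. PARP14 (chromosome 3) was at 1.89, 5.52 and 13.9 CPM in STAT6 WT and 10.1, 19 and 38.3 CPM in STAT6 MUT. Of 9 STAT6 MUT libraries, 7 lay above all STAT6 WT libraries, and the log2 fold change was 2.32 ± 0.26 (SE, adjusted p = 2.80e-08). PARP9, which overlaps DTX3L on the other strand, rose by 1.88 ± 0.26 (SE, adjusted p = 5.44e-06), from 1.40, 5.96 and 16.9 CPM to 7.67, 13.9 and 29.4 CPM, with 4 STAT6 MUT libraries above all STAT6 WT libraries. PARP12 rose by 0.44. Of 4 tested apolipoprotein L genes, which include a channel-forming protein of innate defence, 3 were called higher (75%, against 0.852%): APOL1 by 0.92, APOL6 by 0.49 and APOL3 by 0.29. The count was 0 or 1 without any 1 of WT replicates 3, 5, 6, 7, 8 and 9, D419G replicates 1 and 2 and the 3 N421K libraries. It was 0 with DESeq2, which gave APOL1 no adjusted p. APOL1 kept its call in 23 of the 25 alternative settings that gave it a value. The APOL6 call ended without any 1 of 9 libraries (WT replicates 3, 6, 8 and 9, D419G replicates 1 and 2 and all 3 N421K libraries, adjusted p 0.0509 to 0.107, edgeR). No MHC class I presentation gene of 11 tested was called in edgeR (median log2 fold change 0.09, 3 at an unadjusted p under 0.05, 1 called by DESeq2 and 0 by limma-voom), and none of 5 class II genes (-0.16, 1 at an unadjusted p under 0.05, 0 called by the other tools).

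Of 22 tested genes from a list of IL-4 and STAT6 targets, 6 were called higher (27.3%, against 0.852% of all genes) and none lower, with a median log2 fold change of 0.16. Among them were ID2, XBP1, BCL6, CYBB and FCER2. FCER2 (chromosome 19), the CD23 receptor, was at 10.6, 13.8 and 25.8 CPM in STAT6 WT and at 15.5, 23.4 and 30.7 CPM in STAT6 MUT. Its groups overlapped, with 3 STAT6 MUT libraries above all STAT6 WT libraries and a log2 fold change of 0.66 ± 0.17 (SE, adjusted p = 0.0368). This call ended without any 1 of 9 libraries (WT replicates 3, 5, 6 and 7, all 3 D419G libraries, D419N replicate 1 and N421K replicate 1; adjusted p 0.0517 to 0.150).

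ID2, an inhibitor of E proteins, was at 103, 115 and 141 CPM in STAT6 WT and 122, 157 and 194 CPM in STAT6 MUT, with 7 STAT6 MUT libraries above all STAT6 WT libraries and a log2 fold change of 0.48 ± 0.08 (SE, adjusted p = 1.66e-04). XBP1, the plasma cell and unfolded protein response factor, rose by 0.50 ± 0.12 (SE, adjusted p = 0.0181), and BCL6, the germinal centre repressor, by 0.29 ± 0.07 (SE, adjusted p = 0.0181), from 309, 337 and 444 CPM to 309, 408 and 493 CPM. The XBP1 call ended without WT replicate 3 or D419G replicate 2 (adjusted p 0.0591 to 0.0872), and the BCL6 call without WT replicate 6 or D419G replicate 3 (0.0570 to 0.0574). CYBB, a subunit of the phagocyte oxidase, rose by 0.83 ± 0.22 (SE, adjusted p = 0.0395). The CYBB call ended without D419N replicate 3, WT replicate 2 or D419N replicate 2 (0.0536 to 0.0653).

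The feedback inhibitor SOCS1 did not pass, at 42.0, 53.7 and 57.7 CPM in STAT6 WT and 43.1, 65.9 and 101 CPM in STAT6 MUT (log2 fold change 0.33 ± 0.11, SE, adjusted p = 0.133, edgeR). Without D419G replicate 1 it did (log2 fold change 0.39, adjusted p = 0.0434). CCL17, a chemokine that IL-4 induces, was at most 3.97 CPM in any library and was not tested. None of the 9 tested members of the IL-4 receptor and Janus kinase list was called in edgeR (median 0.09), nor was either of 2 tested SOCS genes, and unadjusted p-values under 0.05 numbered 0 and 1, with 0 calls by DESeq2 and limma-voom.

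B cell state genes moved in both directions. Of 20 tested germinal centre transcription factors, 2 were higher (10%, against 0.852% of all genes), BCL6 among them, and 2 lower (10%, against 0.591%), BACH2 and BCL11A (median log2 fold change -0.05). BACH2, which holds back plasma cell differentiation, was at 220, 252 and 326 CPM in STAT6 WT and 160, 199 and 233 CPM in STAT6 MUT. All but 1 of the STAT6 MUT libraries lay below all STAT6 WT libraries, with a log2 fold change of -0.33 ± 0.07 (SE, adjusted p = 0.00682). BCL11A, a lymphoid zinc finger factor, fell by 0.70 on the log2 scale (adjusted p = 0.0373), with a fitted change of -1.47 in N421K (-1.58 without its replicate 2), -0.38 in D419G and -0.23 in D419N. The BCL11A call ended without any 1 of 8 libraries (WT replicates 3, 5, 6, 8 and 9, D419N replicate 1, N421K replicates 1 and 3, adjusted p 0.0551 to 0.129).

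IL21R, the receptor of the T follicular helper cytokine IL-21, was at 3.22, 8.69 and 14.1 CPM in STAT6 WT and 17.7, 29.6 and 35.6 CPM in STAT6 MUT. The groups did not overlap, and the log2 fold change was 1.59 ± 0.18 (SE, adjusted p = 4.73e-08). QSOX1, an enzyme that forms disulfide bonds, was at 25.2, 45.3 and 73.1 CPM and at 46.1, 86.3 and 130 CPM, with 6 STAT6 MUT libraries above all STAT6 WT libraries and a log2 fold change of 0.97 ± 0.15 (SE, adjusted p = 5.26e-05). CD83, a surface marker of activated B cells, rose by 0.57 ± 0.11 (SE, adjusted p = 0.00106), from 145, 190 and 258 CPM to 210, 289 and 401 CPM. Of 12 tested NF-kB response genes, CD83 and GADD45B were called higher (16.7%, against 0.852% of all genes; median 0.07). GADD45B rose by 0.48 and the stress and p53 target GADD45A by 0.52, each with 7 STAT6 MUT libraries above all STAT6 WT libraries. BMF, a BH3-only member of the BCL2 family that promotes cell death, was at 49.7, 57.5 and 64.7 CPM in STAT6 WT and 55.8, 72.1 and 114 CPM in STAT6 MUT, with 8 STAT6 MUT libraries above all STAT6 WT libraries and a log2 fold change of 0.52 ± 0.10 (SE, adjusted p = 0.00171).

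Among metabolic genes, 3 of 23 tested glycolysis and hypoxia genes were called higher (13.0%, against 0.852% of all genes; median log2 fold change 0.15). They were ALDOC, an aldolase (0.49), PGK1 (0.34) and ENO1 (0.22). ALDOC was at 117, 131 and 156 CPM in STAT6 WT and 143, 193 and 232 CPM in STAT6 MUT. The PGK1 call ended without WT replicate 8 (adjusted p = 0.0534) and without the 3 shallow libraries (log2 fold change 0.24, adjusted p = 0.0799), and its highest level, 1091 CPM, was in the shallow D419N replicate 3. The list summed to 12071 to 13393 CPM in STAT6 WT and 12574 to 15513 CPM in STAT6 MUT, and its highest sums were in the shallow N421K replicate 2 (15513 CPM) and D419N replicate 3 (15321 CPM). Without the 3 shallow libraries 1 of 24 tested members was called, and 1 of 23 without WT replicate 8. SCD, the desaturase of fatty acid synthesis, was the 1 call among 29 tested lipid synthesis genes (3.45%, against 0.852% of all genes). Its log2 fold change was 0.45 (adjusted p = 0.00558, edgeR).

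DESeq2, limma-voom and edgeR's test called no member among 26 B cell receptor signalling genes (median log2 fold change -0.08), 8 immediate early genes (0.23), 38 mitosis genes (0.07, 31 of them positive), 44 genes of G1/S and DNA replication (-0.01), 16 heat shock protein genes (-0.10, 1 of them positive), 79 cytosolic ribosomal protein genes (-0.05), 9 migration receptors (-0.02) or 17 genes of the mitochondrial genome (-0.03). At an unadjusted p under 0.05 in edgeR these lists held 8, 3, 4, 3, 4, 9, 3 and 1 genes in that order. Over all genes the number was 1205 of 8801 tested. With 1 call each stood 8 ID, E protein and LMO genes (ID2, 12.5%, median 0.08) and 5 plasma cell regulators (XBP1, 20%, -0.04). The same held for 19 unfolded protein response genes (XBP1, 5.26%, 0.04), 11 BCL2 family genes (BMF, 9.09%, 0.03) and 17 p53 targets (GADD45A, 5.88%, 0.05). Of all genes 0.852% were called higher, and each of these list shares rests on 1 gene. The list of 16 tested B cell activation and adhesion genes had a median of -0.12. It held 1 rise (CD83, 6.25% against 0.852% of all genes) and 1 fall (CD48, 6.25% against 0.591%). Heat shock genes summed to 9176 to 10044 CPM in STAT6 WT and 7670 to 9685 CPM in STAT6 MUT. Whether that shift touches the gene groups above was not tested.

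**Figure D2:**
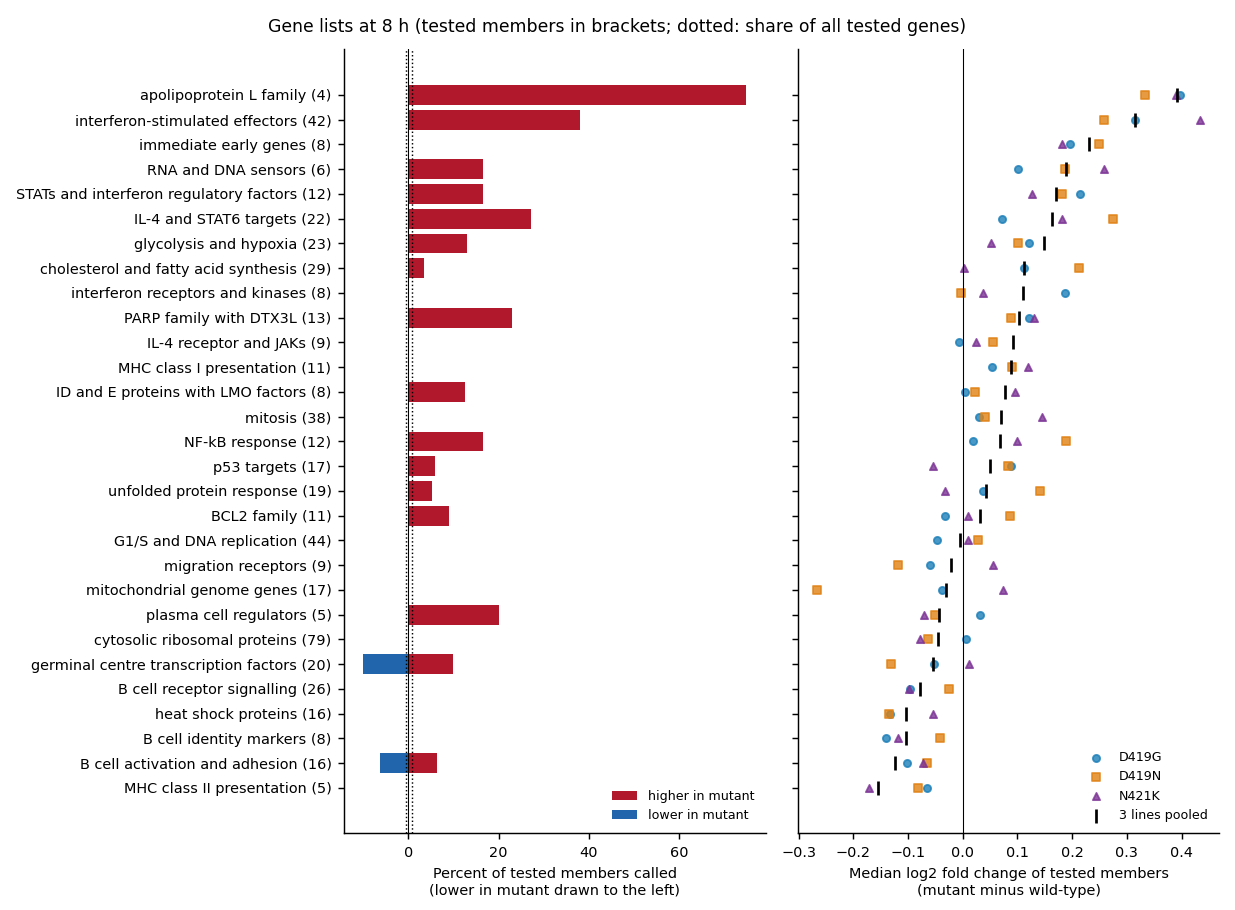
Left, percent of the tested members of each gene list that were called higher (right of 0) or lower (left of 0) in STAT6 MUT at 8 h, with dotted lines at the shares over all tested genes (0.852% and 0.591%). Right, the median log2 fold change of each list in each line (symbols) and with the lines pooled (bars), where the interferon effectors lie at 0.31 and MHC class II at -0.16.

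Of the falls, EPCAM had the smallest adjusted p. It is an adhesion protein best known from epithelia, which these lymphoma cells expressed. EPCAM (chromosome 2) was at 72.9, 115 and 124 CPM in STAT6 WT and 15.4, 70.8 and 82.9 CPM in STAT6 MUT. In 5 STAT6 MUT libraries the level lay below all STAT6 WT libraries, and the log2 fold change was -1.08 ± 0.17 (SE, adjusted p = 5.26e-05), or -1.11 without N421K replicate 2. By line the log2 fold change was -2.10 (N421K), -0.64 (D419G) and -0.73 (D419N). The other stromal and epithelial markers were at or near 0 (VIM, COL1A1, COL1A2, KRT8 and KRT18) except CDH1, at a mean of 12.4 ± 3.91 CPM (SD, n = 9) in STAT6 WT and 9.76 ± 3.39 CPM (SD, n = 9) in STAT6 MUT.

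PAG1, an adaptor that anchors the kinase CSK to membrane rafts, was at 61.3, 71.0 and 83.8 CPM in STAT6 WT and 14.7, 52.2 and 107 CPM in STAT6 MUT. It fell by 0.82 on the log2 scale (adjusted p = 0.00693), with 6 STAT6 MUT libraries below and 2 above all STAT6 WT libraries, and the exact permutation test over libraries gave p = 0.0715. CD48, a ligand of the lymphocyte receptor 2B4, was at 12.9, 24.9 and 31.3 CPM and at 4.71, 17.7 and 35.6 CPM, a fall by 1.05 (adjusted p = 0.00824; exact permutation p = 0.0881). The fitted changes by line were -1.68, -0.71 and -0.03 for PAG1 and -2.10, -1.04 and -0.01 for CD48 in N421K, D419G and D419N. Without N421K replicate 2 the N421K changes were -2.03 for PAG1 and -2.35 for CD48, both among the genes by which that library was singled out. Without N421K replicate 3 the pooled calls ended (PAG1 adjusted p = 0.0555, CD48 0.0624), and they ended with DESeq2 (0.504 and 0.441). FARP2, a guanine nucleotide exchange factor for Rac, was at -1.40 in N421K (-1.72 without its replicate 2), -0.49 in D419G and -0.44 in D419N, with a pooled fall by 0.78. The FARP2 call ended with DESeq2 (-0.67, adjusted p = 0.0762), without replicate number 1 (-0.52, edgeR, adjusted p = 0.0637) and without the N421K line (-0.47, adjusted p = 0.0620), and FARP2 was not among the genes that differed between the lines.

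TERT, the catalytic subunit of telomerase, was at 10.8, 14.4 and 20.9 CPM in STAT6 WT and 0, 6.72 and 17.8 CPM in STAT6 MUT. In 7 STAT6 MUT libraries the level lay below all STAT6 WT libraries, with a log2 fold change of -1.02 ± 0.24 (SE, adjusted p = 0.0161). TERT had few counts, 0 to 14 UMIs in the STAT6 MUT libraries, and its 17.8 CPM was 3 UMIs in the shallow D419N replicate 3. The TERT call ended without replicate number 1 (adjusted p = 0.0542, edgeR) or 3 (0.219), without the N421K line (0.0902) and with the replicate number as a block (0.187). PITPNC1, a phosphatidylinositol transfer protein, had a fitted fall by 1.11 (adjusted p = 0.0289), but it was counted in few UMIs, at 0, 12.5 and 19.3 CPM in STAT6 WT and 0, 6.01 and 15.2 CPM in STAT6 MUT, and its exact permutation p was 0.217. The remaining falls of at least 0.48 were ZYX, a focal adhesion protein (-0.69), RNF144B, a ubiquitin ligase (-0.63), TTN (-0.57), TTC39C (-0.52) and FASTK (-0.48). These last calls, TTN apart, rested on single libraries. The ZYX call ended without any 1 of WT replicates 3, 6 and 8, D419G replicate 2 and N421K replicates 1 and 3 (adjusted p 0.0601 to 0.122). The RNF144B call ended without WT replicates 3, 8 or 9, D419G replicate 3 or N421K replicates 1 or 3 (0.0502 to 0.0818). That of TTC39C ended without WT replicates 1, 2, 3, 6, 8 or 9, D419G replicate 3, D419N replicate 2 or N421K replicates 1 or 3 (0.0510 to 0.159), and that of FASTK without WT replicates 2, 3, 5, 6, 7 or 8, D419G replicates 2 or 3, D419N replicate 2 or N421K replicates 1 or 3 (0.0515 to 0.0911).

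The falls of smaller size, named here after their values were seen, include the 5 genes whose groups did not overlap. ARPC1B, a subunit of the ARP2/3 actin complex, fell from 1209 ± 51.8 CPM (SD, n = 9) to 930 ± 117 CPM (SD, n = 9), by 0.38 on the log2 scale. PLEKHO1 fell by 0.43, PMVK, a kinase of the mevalonate pathway, by 0.28, and POLR2J, a subunit of RNA polymerase II, by 0.25. NCF1C, a pseudogene whose reads may be shared with NCF1 and NCF1B, fell by 0.31. ARPC1B, POLR2J and NCF1C lie on chromosome 7, where many genes were lower, as described next. Whether their falls are separate from that pattern was not tested.

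Genes on chromosome 7 made up 18 of the 52 genes called lower (34.6%), against 461 of the 8801 genes tested (5.24%), while 3 were called higher (SAMD9, GLCCI1 and PARP12). Over the 461 genes the median log2 fold change was -0.08, with 67.7% of them below 0, and by line it was -0.06 in D419G, -0.10 in D419N and -0.10 in N421K. The median was also -0.08 at 2 h and -0.08 at 4 h, in libraries that the 8 h comparison did not use. Along the chromosome it was 0.02 over 53 genes in the first 20 Mb, and -0.19, -0.14 and -0.16 over the 85, 58 and 50 genes from 100 to 120, 120 to 140 and 140 to 160 Mb. The genes called lower there included POLR2J, CUX1, ZYX, CASP2, SSBP1 and FASTK. This pattern is given as a description, and its cause was not tested.

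**Figure D3:**
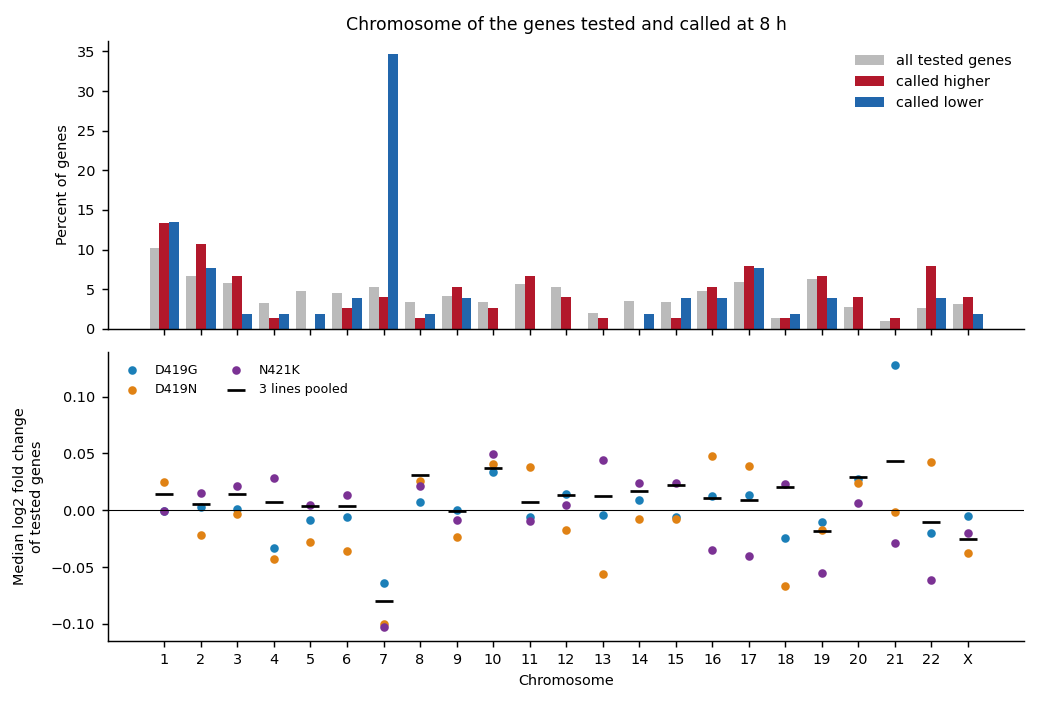
Top, percent of all tested genes, of genes called higher and of genes called lower at 8 h that lie on each chromosome, with chromosome 7 holding 34.6% of the genes called lower. Bottom, median log2 fold change of the tested genes of each chromosome in each line (points) and with the lines pooled (bars), at -0.08 for chromosome 7.

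The 3 lines were then compared with the same 9 STAT6 WT libraries, so their counts share controls. Of 9809 genes tested, 57 were called in D419G (0.581%; 47 higher and 10 lower), 47 in D419N (0.479%; 24 and 23) and 194 in N421K (1.98%; 109 and 85). Each line has 3 libraries, and single ones set these counts. D419G had 29 calls without its replicate 2. D419N had 15 without replicate 3, 237 without replicate 1 and 6 without replicate 2. N421K had 73 without replicate 3, 52 without replicate 1 and 244 without replicate 2, the library that stood apart. Of the 8801 genes tested in the pooled comparison, 8 were called in all 3 lines, all 8 higher: MX1, IFI44, EPSTI1, IRF7, ISG15, IFI35, PARP14 and MOB3C. The log2 fold change of MX1 was 2.60, 1.96 and 3.01 in D419G, D419N and N421K, and that of PARP14 was 1.85, 2.05 and 2.74.

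The difference between the lines was tested itself, and 15 of 9809 genes (0.153%) differed in edgeR's F test. Of the genes called in the pooled comparison, these were MX1 (adjusted p = 0.0110), EPCAM (0.00277), PAG1 (0.00578) and CUX1 (0.0196). The smallest p belonged to ADGRE5, the adhesion receptor CD97, at -2.19 in N421K on the log2 scale, against 0.46 in D419G and -0.26 in D419N (adjusted p = 1.93e-07). CAMK4, a calcium-dependent kinase, was at -2.05, 0.29 and -0.05 (adjusted p = 1.38e-06), and SCRN1 at -2.20, 0.04 and -0.15 (adjusted p = 1.60e-04). In CPM, ADGRE5 was at 38.0 ± 8.79 (SD, n = 9) in STAT6 WT, 55.6 ± 7.79 (SD, n = 3) in D419G, 30.2 ± 7.25 (SD, n = 3) in D419N and 13.4 ± 10.5 (SD, n = 3) in N421K. None of these 3 genes was called in the pooled comparison. The number that differed was 2 without N421K replicate 1, 101 without N421K replicate 2, 23 without D419G replicate 1 and 59 without D419N replicate 1. The MX1 difference did not pass without D419N replicate 2 (adjusted p = 0.144) or N421K replicate 1 (0.462), the EPCAM difference without N421K replicate 3 (0.0511) or replicate 1 (0.631), the PAG1 difference without N421K replicate 3 (0.140) or replicate 1 (0.462), and the SCRN1 difference without N421K replicate 1 (0.0680). Without N421K replicate 2 the adjusted p was 5.29e-05 for MX1, 1.52e-05 for EPCAM and 3.10e-06 for PAG1. EPCAM and PAG1 are among the genes by which that library was singled out, so their smaller p without it is no support. At 8 h N421K replicate 2 held EPCAM and PAG1 at 6.29 and 6.46 log2 CPM, within or near the other lines, while N421K replicates 1 and 3 were between 4.06 and 4.92 for these genes.

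**Figure D4:**
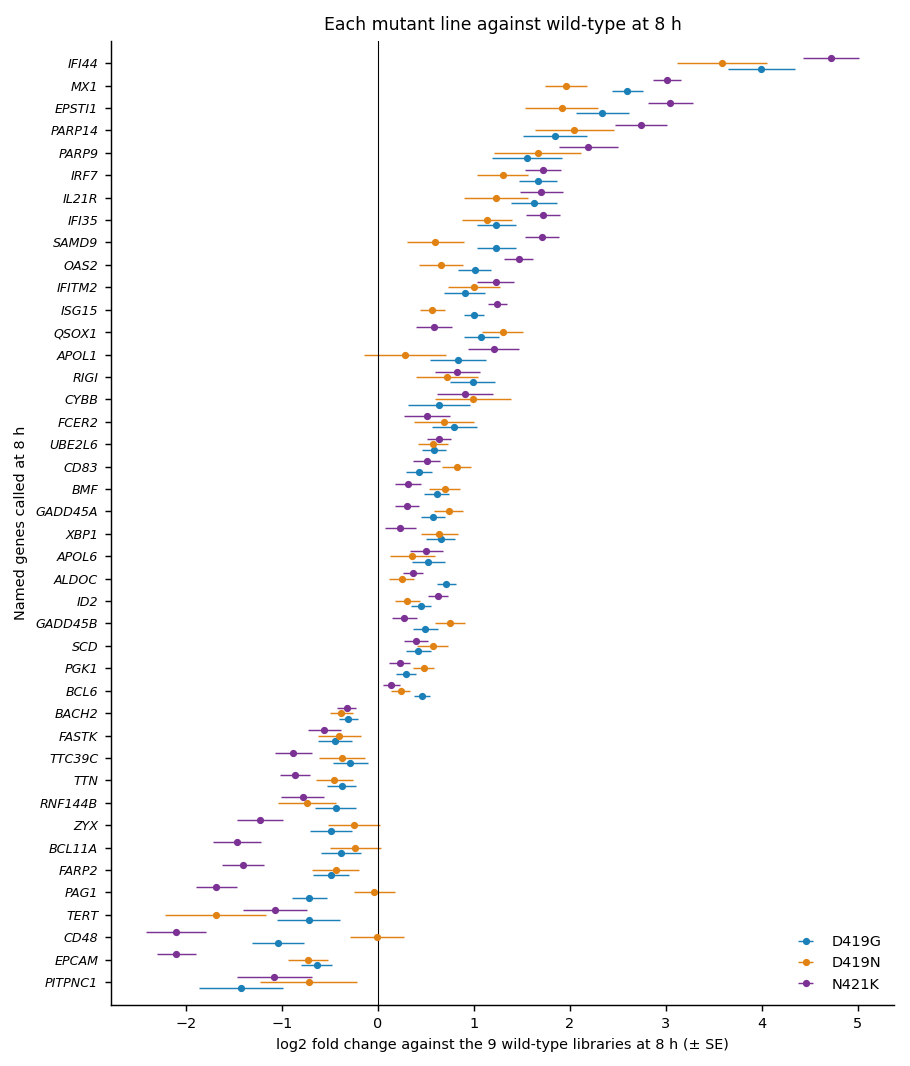
Log2 fold change of each mutant line against the 9 STAT6 WT libraries at 8 h for the named genes that were called, with bars of 1 SE. MX1 and PARP14 lie at 1.85 or above in all 3 lines, while PAG1 and CD48 lie at -1.68 and -2.10 in N421K and near 0 in D419N.

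The effect at 8 h was compared with the mean effect at 2 h and 4 h, in a model of all 54 libraries. It differed for 41 of 9507 genes (0.431%), with 1145 at an unadjusted p under 0.05. In 36 of the 41 the effect at 8 h was above that at the earlier times, and in 30 of these it had been below 0 at both 2 h and 4 h. The count was 111 without replicate number 1 and 14 without replicate number 3 of every group. Whether libraries of 1 line and number at the 3 times came from 1 culture is not stated, and the model took them as independent. With line and number as a block (the culture) 53 genes differed.

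LMO4, a LIM-only transcriptional adaptor, was higher in STAT6 MUT early and no longer so at 8 h. From log2 fold changes of 0.96 at 2 h and 0.92 at 4 h it came to 0.05, a difference of -0.89 ± 0.12 (SE, adjusted p = 7.06e-07). APOL6 was at 1.54, 1.23 and 0.48, a difference of -0.90 ± 0.17 (SE, adjusted p = 0.00113). For other genes the effect was larger at 8 h. BMF went from -0.35 and -0.23 to 0.52, a difference of 0.81 ± 0.13 (SE, adjusted p = 1.31e-04), and GADD45B from -0.86 and 0.23 to 0.47 (0.78 ± 0.13, SE, adjusted p = 1.88e-04). QSOX1 went from -0.26 and 0.34 to 0.96 (0.92 ± 0.16, SE, adjusted p = 6.05e-04). ISG15 was at 0.25, 0.75 and 0.99 (0.49 ± 0.11, SE, adjusted p = 0.0116), and IL21R at 0.60, 0.71 and 1.58 (0.93 ± 0.24, SE, adjusted p = 0.0451). The difference of ISG15 did not pass without replicate number 1 (adjusted p = 0.0725, edgeR) or without the D419G line (0.0669). That of IL21R did not pass without any 1 of the 3 replicate numbers (0.107 to 0.158) or any 1 line (0.0673 to 0.124). It also did not pass with the culture as a block (0.0595), with no count filter (0.0530) or without the shallow libraries (0.0579). Of the genes with an effect below 0 at both early times and a difference above 0, chosen here after their values were seen, CXCR5, the B follicle homing receptor, was at -0.57, -0.42 and -0.07, the B cell factor SPIB at -0.50, -0.33 and 0.04, and S1PR2 at -0.85, -0.48 and -0.23.

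In fits of each time by itself, 63 of the 127 genes called at 8 h (49.6%) were also called in the same direction at 2 h, which is 8.48% of the 743 called there (8.59% of 8651 tested), and 72 (56.7%) at 4 h, which is 21.1% of the 342 called there (3.97% of 8605 tested). For 36 of the 127 neither earlier time had a call. Of the 48 interferon-list genes tested at 8 h, 10 were called higher at 2 h, 29 at 4 h and 18 at 8 h (37.5%). Of all genes tested at each time, 3.92%, 1.96% and 0.852% were called higher. List genes tested only at an earlier time were not counted. Members that did not pass the filter earlier, such as IFI44, could not count there, so the 3 numbers are not shares of like sets. The log2 fold change of MX1 was 1.30, 2.65 and 2.64, and that of EPCAM was -1.26, -1.15 and -1.08.

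**Figure D5:**
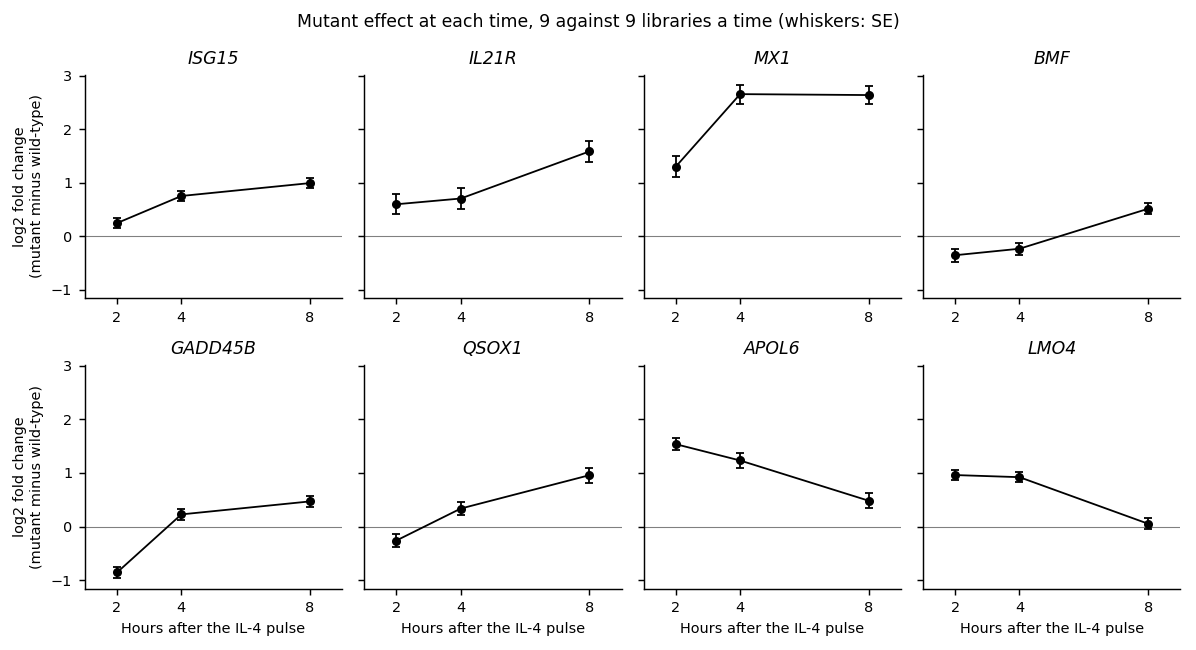
Log2 fold change of STAT6 MUT against STAT6 WT at 2 h, 4 h and 8 h after the IL-4 pulse for 8 genes, from the model of all 54 libraries, with whiskers of 1 SE. LMO4 drops from 0.92 at 4 h to 0.05 at 8 h, while BMF and QSOX1 go from below 0 at 2 h to 0.52 and 0.96 at 8 h.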

How the data were processed

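Bulk RNA of 54 OCI-Ly1 libraries was measured by prime-seq, of which the 18 collected at 8 h carry the comparison. The reads, from an Illumina instrument, went through the Drop-seq pipeline, and the authors deposited 1 table of UMI counts per gene, not normalized. The labels name the genome build hg38. The sources used here give neither the aligner version nor the strand setting. The table holds 31835 gene identifiers, of which 24867 matched a symbol. Groups came from the sample titles. From the deposited counts, genes were filtered with filterByExpr, scaled by TMM and tested with edgeR 4.0.16 (R 4.3.3) by the quasi-likelihood test. P-values were adjusted by Benjamini-Hochberg across every gene tested, at a threshold of 0.05. The 3 mutant lines were pooled for the main test, then fitted as separate levels, and times were compared in 1 model of all 54 libraries. SE is the fold change over the root of F. CPM are counts scaled to 1000000 UMIs with the TMM factor, and log2 CPM used a prior count of 2. Exact permutation tests of single values were two-sided over libraries and on log2 CPM. Tests were checked on simulated counts.

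The study used DESeq2, run here (1.42.0) with limma-voom (limma 3.58.1) as alternatives, beside other scalings, filters, covariates and samples left out. The gene lists and members were chosen with earlier results of these data known. Genes were named by a rule: the 12 largest rises and 12 largest falls of 1 sign in the 3 lines, up to 2 called genes in each direction per list (6 for the effectors), the 5 smallest p for time and 3 for lines, and genes the study discussed. Others are marked as chosen later. Some genes are not reported here. Promoters came from RefSeq (GRCh38.p14) and positions from GENCODE (GRCh38). Repeated samples of a group varied by more than counting noise in all 45 same-group pairs. Separate libraries of 1 culture could do so too, so this does not show that the libraries are independent. Each was counted by itself because the labels call them biological replicates. The p-values measure the spread between these libraries only. Depth, from 161518 UMIs, limits genes of few counts.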

Additional observations from a re-analysis of the deposited data

Results flagged for a closer look

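Of 96 sets of a named gene and a group, 8 had 1 library far from the rest of its group, where chance gives about 1 in 20. In log2 CPM these were IFI44 in WT replicate 1 (3.08), IFI35 in the shallow D419N replicate 3 (3.80), EPCAM in WT replicate 8 (6.23), BCL6, PITPNC1 and FASTK in the shallow WT replicate 2 (8.80, 1.01 and 6.00), ZYX in WT replicate 4 (3.99) and FASTK in the shallow N421K replicate 2 (2.83). With 3 of the 18 libraries shallow, 5 of these 8 values came from them.

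The effect at 8 h differed from the mean effect at 2 h and 4 h by the test of that difference for 7 named genes. The log2 differences were 0.49 for ISG15, 0.93 for IL21R, 0.92 for QSOX1, 0.81 for BMF, 0.78 for GADD45B, -0.90 for APOL6 and -0.89 for LMO4. Those of ISG15 and IL21R did not pass under some other settings, as given above.

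The 3 mutant lines differed from each other by the F test for 6 named genes, and in each the N421K estimate lay farthest from 0. Its log2 fold change against STAT6 WT was 3.01 for MX1, -2.10 for EPCAM, -1.68 for PAG1, -2.20 for SCRN1, -2.05 for CAMK4 and -2.19 for ADGRE5. N421K replicate 2 lay above both other N421K libraries for EPCAM (6.29 log2 CPM), PAG1 (6.46), ADGRE5 (4.78) and SCRN1 (4.11), between them for CAMK4 (3.60) and below them for MX1 (7.17), and the cause was not tested.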

How the results depend on the processing

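Against 127 genes at the main setting, 239 were called with no filter on low counts, 247 in a model of all 54 libraries, 74 without the N421K line and 19 with the replicate number as a replicate block. Leaving out 1 library or replicate number gave 53 to 300, and single libraries alone 76 to 206. Deviations of same-numbered samples correlated at -0.17 to 0.14 over 9 pairs, and those of other numbers at -0.20 to 0.20 over 18 pairs. These few pairs show no pairing by number but cannot settle whether a number marks a shared batch. With the block the calls of 29 of the 42 named genes called at 8 h ended. Replicate numbers 4 to 9 occur only in STAT6 WT. Within the block those libraries have no STAT6 MUT library beside them and add nothing to the comparison of genotypes. The block thus compares fewer STAT6 WT libraries, and its smaller counts do not by themselves show a batch. With DESeq2 85 genes were called. For the lines, D419G went from 57 to 20 with the replicate block, 37 with DESeq2 and 29 to 41 with a library left out. D419N went from 47 to 153 with no filter, 15 with the block and 6 to 237 with a library left out. N421K went from 194 to 68 with the block, 76 with DESeq2 and 52 to 244 with a library left out. The 15 genes that differed among lines became 80 with no filter, 84 without the shallow libraries, 8 with DESeq2's likelihood ratio test and 2 to 101 with a library left out. The 41 genes that differed in time became 26 without the D419G line, 23 without the N421K line and 14 to 111 without a replicate number. The 18 interferon genes called higher became 33 with no filter, 9 with the block and 16 to 21 with a library or number left out. Of the uncalled values, 3 changed sign: CAMK4 to 0.18 and ADGRE5 to 0.24 without the N421K line, and LMO4 to -0.077 with the block. The cause of these shifts was not tested.

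Of 42 named genes called at 8 h, 12 kept their call under all 36 alternatives (35 for IFI44 and PARP14, to which DESeq2 gave no adjusted p) and none changed sign. Another 7 kept it under all alternatives but the block that gave a value (36 each, but 35 for RIGI and 23 for PARP9, which failed the count filter in most of the others). Low totals in 3 libraries and 3 libraries per line limit the precision of single lines.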

Other observations

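Genes called at 8 h and in no list numbered 83, 35 of them higher and 48 lower. The following were chosen after their values were seen. Among the higher ones were MOB3C, a MOB family kinase regulator (20.0 ± 5.66 CPM in STAT6 WT and 39.9 ± 6.92 CPM in STAT6 MUT, SD, n = 9 each; log2 fold change 1.03, and -0.02 at 2 h and 1.11 at 4 h), CEBPD, a C/EBP transcription factor (1.05), the potassium channel KCNK6 (0.83), NINJ1, which ruptures membranes in lytic cell death (0.81), COL9A3 (0.80), the metallothionein MT2A (0.70), SAT1, which breaks down polyamines (0.58), and HMOX1, which breaks down heme (0.57). NINJ1 stood at 0.29 at 2 h and -0.10 at 4 h, and HMOX1 at 0.02 and 0.10. Among the lower ones were CORO1A, a leukocyte coronin (353 ± 39.1 and 271 ± 39.5 CPM, SD, n = 9 each; -0.37), the lysosomal protein LAPTM5 (-0.28), TCL1A (-0.29), VPREB3 (-0.23) and GPX1 (-0.32). CORO1A and LAPTM5 were below 0 at the earlier times too, at -0.34 and -0.31 at 2 h and -0.27 and -0.25 at 4 h.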
